A study of Mus musculus with 2 samples.

Results

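The 10 heat shock genes described here encode chaperones and co-chaperones of the cytosol, the mitochondrial chaperonin, and the transcription factor driving many of them. They were chosen by gene symbol from the 15526 genes of the deposited table and are Hsf1, Hsp90aa1, Hsp90ab1, Hspa8, Hspa1b, Hsph1, Dnaja1, Dnajb1, Hspd1 and Hspe1. All 10 had a row, and all 10 passed the floor used below, a mean of at least 10 CPM (counts scaled to library size, on the authors' scale) over both libraries, as did 7761 genes in all. Both groups were livers of female NOG-TKm30 mice, 22 weeks old, which are severely immunodeficient and carry a mutant herpes simplex thymidine kinase cDNA (HSVtk mutant clone 30) under the enhancer and promoter of the mouse transthyretin gene, which is active in hepatocytes. The labels also name C57BL as the strain background, and this was left as it stands. The control group, called untreated here, received 0% and the treated group 0.3% acetoaceto-o-toluidide (AAOT, an anilide of o-toluidine) over 4 weeks. RNA of 3 mice was pooled in each group and sequenced as 1 library, with 18801241 reads assigned to genes in the untreated pool and 16528533 in the treated pool. With 1 library per group there was no spread between animals to test against, so no p-value is given, and each interval covers counting error only.

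Heat shock proteins hold unfolded proteins and help them fold. In the cytosol Hsp70 binds unfolded stretches with the help of J-domain proteins, Hsp110 resets it by nucleotide exchange, and Hsp90 takes over many clients for their final folding, among them kinases and ligand-binding receptors such as the glucocorticoid receptor, AhR and CAR. In mitochondria a barrel of Hsp60 closed by an Hsp10 lid folds imported proteins. The factor HSF1, held back by chaperones in resting cells, binds heat shock elements, which are arrays of alternating GAA and TTC units, in the promoters of many of these genes.

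Promoter sequence was at hand for 6 of the 10 genes, from RefSeq on GRCm38.p6, in windows of 250 bases before to 50 bases after each annotated start. The search was for 2 units, spelled GAANNTTC or TTCNNGAA. Each motif is its own reverse complement, so both strands are read at once, and neighbouring matches may overlap. At least 1 match stood in a window of 5 of the 6 genes, against 17% of 27025 genes with a window. A longer array, of 3 alternating units, stood in windows of Hspd1, Hspe1 and Hsph1, against 0.662% of genes. The stretches below show the elements that lie before an annotated start, in capitals, 5′ to 3′ along the gene's own strand. They are from chr1:55088053-55088082, plus strand (Hspe1), chr5:149636351-149636380, minus strand (Hsph1), chr4:40722333-40722362, plus strand (Dnaja1), and chr17:34959309-34959388, minus strand (Hspa1b).
Hspe1: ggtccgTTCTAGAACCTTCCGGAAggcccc
Hsph1: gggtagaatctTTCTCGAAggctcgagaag
Dnaja1: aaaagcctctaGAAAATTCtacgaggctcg
Hspa1b: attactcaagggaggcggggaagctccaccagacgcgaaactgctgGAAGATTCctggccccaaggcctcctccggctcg

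The Hspe1 stretch belongs to Hspd1 as well. The genes lie head to head on chromosome 1, and an annotated start of Hspd1 lies 216 bases from that of Hspe1, with transcription leading away from the space between them. Counting each start as base 0, the array of 3 overlapping matches sits from base -89 to base -72 of Hspe1 and from base -144 to base -127 of Hspd1. Another annotated start of Hspd1 lies 95 bases beyond that of Hspe1, and transcripts from it run through this stretch. Exons of longer transcripts of Hsph1 and Dnaja1 likewise reach into the stretches shown for those genes. The Hspa1b stretch is identical, over all 80 bases, to that of its neighbour Hspa1a, and the whole windows of this pair match at 296 of 300 bases (98.7%). The 3-unit array of Hsph1 lies after the annotated starts, at bases 15 to 27 of 1 start and 36 to 48 of the other. No match stood in the windows of Dnajb1, which says only that these letters were not found there. A match is a description of the sequence and not a measured binding site.

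**Figure D1:**
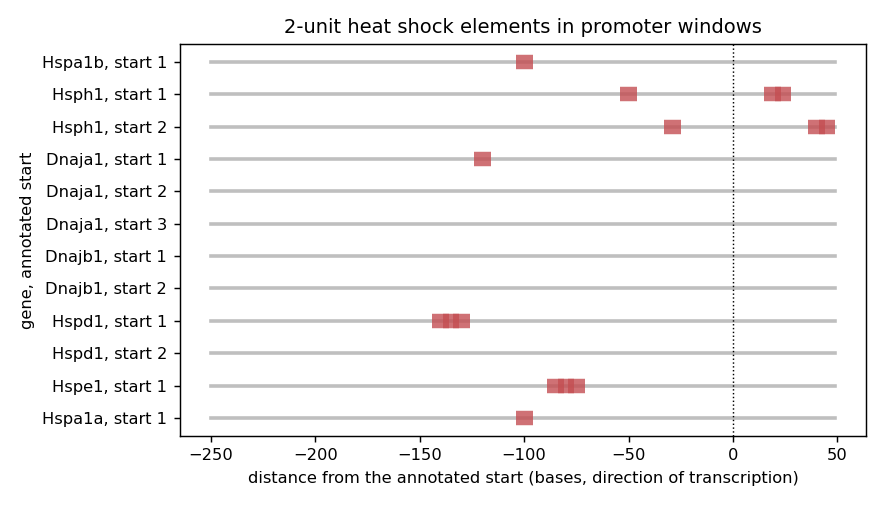
Positions of 2-unit matches (red) in the promoter windows (grey lines) of the 6 genes with sequence and of Hspa1a. The x axis is the distance in bases from each annotated start (dotted line), and each row is 1 annotated start. Hspd1 (start 1) and Hspe1 hold a run of 3 overlapping matches, which are the same bases read from either side, and Dnajb1 holds none.

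The chaperone genes were higher in the treated pool by modest ratios, while Hsf1 was not. The 9 chaperone and co-chaperone genes stood between 1.05-fold and 1.40-fold of the untreated pool, and for the lowest of them, Dnaja1, the counting interval included equality. The ratio was above 1 for 9 of 10 genes, against 46.4% of the 7761 genes above the floor, and below 1 for 1 of 10, against 53.6%. The counting interval lay wholly above 1 for 8 of 10, against 18.7% of genes, and wholly below 1 for 0 of 10, against 20.8%. None reached 1.5-fold in either direction, where the background was 2.07% of genes higher and 1.39% lower, nor 2-fold (0.773% higher and 0.425% lower). The median log2 ratio of the 10 was 0.34 and that of all genes above the floor was -0.02, with an SD across genes of 0.29. Ratios on the log2 scale are log2((treated + 1)/(untreated + 1)) in CPM and are slightly smaller than the plain ratios of CPM given as folds. Summed over the 10 genes the level was 2114 CPM in the untreated pool and 2634 CPM in the treated pool, a ratio of 1.25 (95% counting interval 1.23 to 1.26). A different number of cells of a type and a different amount of RNA per cell cannot be told apart in such bulk samples.

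**Figure D2:**
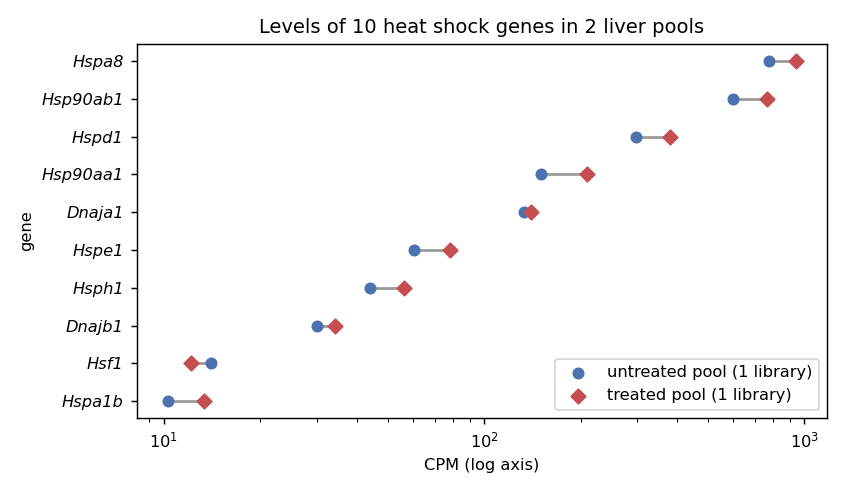
Levels of the 10 genes in CPM (log axis) in the untreated pool (circles) and the treated pool (diamonds), 1 library each and hence without error bars. The diamond lies to the right of the circle for 9 genes and to the left for Hsf1.

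The regulator Hsf1 (chromosome 15, 76477362 to 76501155, GRCm38, 13 exons) had 260 reads in the untreated pool and 203 reads in the treated pool. This is 14.0 CPM against 12.1 CPM, 1.15-fold lower, and the interval from 0.957 to 1.39 includes equality. A difference in Hsf1 mRNA was thus not detectable at this depth. HSF1 is controlled mainly by trimerization and modification of the protein, which mRNA levels do not report. Its relative Hsf2 was also near equality, at 34.3 CPM and 30.7 CPM (1.12-fold lower, 0.995 to 1.26), as was Hsbp1, which encodes a small HSF1-binding protein, at 34.8 CPM and 32.7 CPM (1.06-fold lower, 0.948 to 1.19).

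Both cytosolic Hsp90 genes were higher. Hsp90aa1, the stress-inducible alpha form (chromosome 12, 110691036 to 110696395, 11 exons), was at 150.1 CPM in the untreated pool and 210.2 CPM in the treated pool. Its 1.40-fold ratio (1.33 to 1.47) was the highest of the 10 and exceeded that of 96.8% of genes above the floor. Hsp90ab1, the constitutive beta form (chromosome 17, 45567778 to 45573261, 11 exons), was at 597 CPM and 767 CPM, 1.29-fold higher (1.25 to 1.32). Within a library the reads of the alpha form were 0.252 times those of the beta form in the untreated pool (0.241 to 0.262) and 0.274 times in the treated pool (0.264 to 0.285). The change in this proportion, which does not depend on scaling between the libraries, was 1.09-fold (1.03 to 1.15). Only 41.5% of the 50-base stretches of the longest Hsp90aa1 transcript occur in no other gene's transcripts, against 95.5% for Hsp90ab1, and most of the shared ones occur in the gene model Gm12346, so reads of the alpha form could have been split in counting.

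The constitutive Hsp70 gene dominated the set and the inducible one stayed scarce. Hspa8, which encodes the housekeeping Hsc70 (chromosome 9, 40801276 to 40805202, 9 exons), was at 776 CPM in the untreated pool and 942 CPM in the treated pool, 1.21-fold higher (1.19 to 1.24). It took 36.7% of the reads of the 10 genes in the untreated pool and 35.8% in the treated pool. Hspa1b, the stress-inducible Hsp70 (chromosome 17, 34956429 to 34959238, a single exon), had 191 reads in the untreated pool and 223 reads in the treated pool. These correspond to 10.3 CPM and 13.3 CPM, 1.30-fold higher (1.06 to 1.58). The neighbouring copy Hspa1a had 82 and 105 reads, 4.42 CPM and 6.27 CPM, 1.42-fold higher (1.05 to 1.92). Because 62.3% of the 50-base stretches of Hspa1b are also in Hspa1a, the split between the copies is uncertain, and the summed locus gave 14.7 CPM and 19.6 CPM, 1.33-fold higher (1.13 to 1.57). Hspa1b stood at 0.0133 times the reads of Hspa8 in the untreated pool (0.0114 to 0.0153) and 0.0142 times in the treated pool (0.0123 to 0.0161). The interval of this change, 0.878 to 1.30, includes equality. Only 26.8% of the stretches of Hspa8 are unique, with 70.0% shared with the gene model Gm15459.

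Hsph1, the Hsp110 exchange factor that recharges Hsp70 (chromosome 5, 149616843 to 149636498, 18 exons), was at 44.2 CPM in the untreated pool and 55.99 CPM in the treated pool, 1.27-fold higher (1.15 to 1.39). All of its stretches are unique (100%). The J-domain genes, which deliver clients to Hsp70, had the smallest ratios of the chaperone genes. Dnajb1 (chromosome 8, 83608175 to 83612653, 3 exons), a stress-inducible J protein, was at 30.05 CPM and 34.2 CPM, 1.14-fold higher (1.01 to 1.28). Dnaja1 (chromosome 4, 40722468 to 40734965, 9 exons) was at 133.4 CPM and 140.3 CPM. Its ratio of 1.05 (0.994 to 1.11) includes equality and exceeded that of 69.5% of genes. The proportion of Dnajb1 to Dnaja1 reads was 0.225 (0.205 to 0.247) in the untreated pool and 0.244 (0.222 to 0.267) in the treated pool, a change of 1.08-fold (0.95 to 1.23). Exons of Dnaja1 overlap those of Smu1 on the other strand over 608 bases. The library kit keeps the strand, per the labels' protocols, and no source used here says whether counting did.

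The mitochondrial chaperonin genes had nearly the same ratio. Ratios close to theirs were also found for Hsp90ab1 (1.29-fold), Hspa1b (1.30-fold) and Hsph1 (1.27-fold), so this was not particular to the pair. The part of the promoter stretch that the pair shares was not tested. Hspd1, encoding Hsp60 (chromosome 1, 55077833 to 55088243, 12 exons), was at 299.0 CPM in the untreated pool and 380 CPM in the treated pool, 1.27-fold higher (1.23 to 1.32). Hspe1, encoding the Hsp10 lid (chromosome 1, 55088148 to 55091317, 4 exons), was at 60.4 CPM and 78.2 CPM, 1.29-fold higher (1.19 to 1.40). The reads of Hspd1 were 4.95 times those of Hspe1 in the untreated pool (4.64 to 5.28) and 4.86 times in the treated pool (4.58 to 5.17), a change of 0.983-fold (0.901 to 1.07). Their exons overlap on opposite strands over 112 bases. Unique stretches made up 55.2% of Hspd1 and 63.9% of Hspe1, which share sequence with gene models such as Hspd1-ps3 and AC117239.2.

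**Figure D3:**
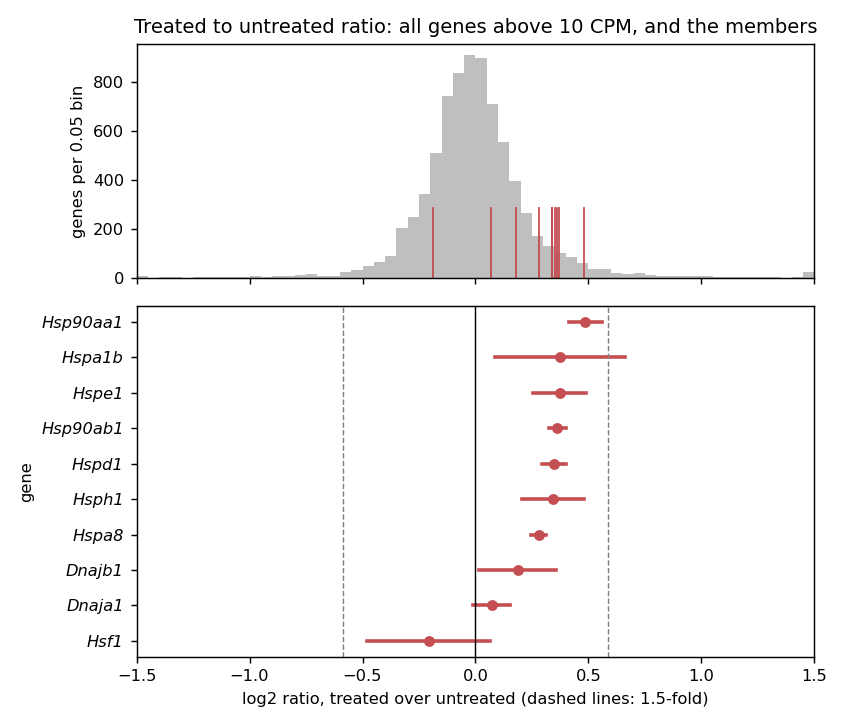
Top: number of genes above 10 CPM per bin of log2((treated + 1)/(untreated + 1)), with the outermost bins holding all more extreme genes and red lines marking the 10 members. Bottom: log2 of the plain ratio of each member with its 95% counting interval. Hsp90aa1 is farthest to the right at 1.40-fold, Hsf1 is the lowest, and no point passes the dashed 1.5-fold lines.

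Levels of different genes can be compared only per length of transcript. On that scale, CPM per kilobase of the longest transcript annotated as principal in GENCODE M21, the order in the untreated pool was Hspa8 (324), Hsp90ab1 (237), Hspd1 (123), Hspe1 (78.1), Hsp90aa1 (45.7), Dnaja1 (23.7), Hsph1 (11.6), Dnajb1 (10.03), Hsf1 (6.72) and Hspa1b (3.67). The treated pool kept this order, from 394 CPM per kilobase for Hspa8 to 4.75 for Hspa1b. With 1 library per pool there is no spread to judge neighbours in this order by. Principal transcripts of Dnaja1 differ in length, and with the shortest its level was 39.5 CPM per kilobase. Hspa8, Hsp90ab1 and Hspd1 held 79.1% of the reads of the 10 genes in the untreated pool and 79.3% in the treated pool. The share of Hsp90aa1 was 7.10% and 7.98%, that of Dnaja1 6.31% and 5.33%, and that of Hsf1 0.662% and 0.461%, respectively.

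Most of the chaperone genes lay at the upper side of the distribution of all genes. Of them, 7 (Hsp90aa1, Hspe1, Hsp90ab1, Hspd1, Hspa1b, Hsph1 and Hspa8) each exceeded the ratio of 91.5% to 96.8% of the genes above the floor. Dnajb1 exceeded 84.8%, Dnaja1 69.5% and Hsf1 15.8%. Hspa8 still had 661 genes with a higher log2 ratio above it and Hsp90aa1 had 251.

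The cytosolic Hsp90 and Hsp70 members were compared with relatives that serve other compartments, a comparison chosen after the values were seen. The ER form Hsp90b1 (Grp94) was at 601 CPM in the untreated pool and 589 CPM in the treated pool, 0.979-fold (0.953 to 1.01). Mitochondrial Trap1 was at 164.9 CPM and 161.5 CPM, also 0.979-fold (0.929 to 1.03). Within a library, reads of Hsp90ab1 were 0.992 times those of Hsp90b1 in the untreated pool (0.966 to 1.02) and 1.30 times in the treated pool (1.27 to 1.34), a change of 1.31-fold (1.27 to 1.36). Hspa5 (BiP), the Hsp70 of the ER, was at 508 CPM and 511 CPM, 1.01-fold (0.977 to 1.04), and mitochondrial Hspa9 (mortalin) at 466 CPM and 509 CPM, 1.09-fold (1.06 to 1.12). The proportion of Hspa8 to Hspa5 reads moved from 1.53 (1.49 to 1.57) to 1.84 (1.80 to 1.89), a change of 1.21-fold (1.16 to 1.25). That of Hspa8 to Hspa9 changed by 1.11-fold (1.07 to 1.16). These intervals again hold counting error alone.

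**Figure D4:**
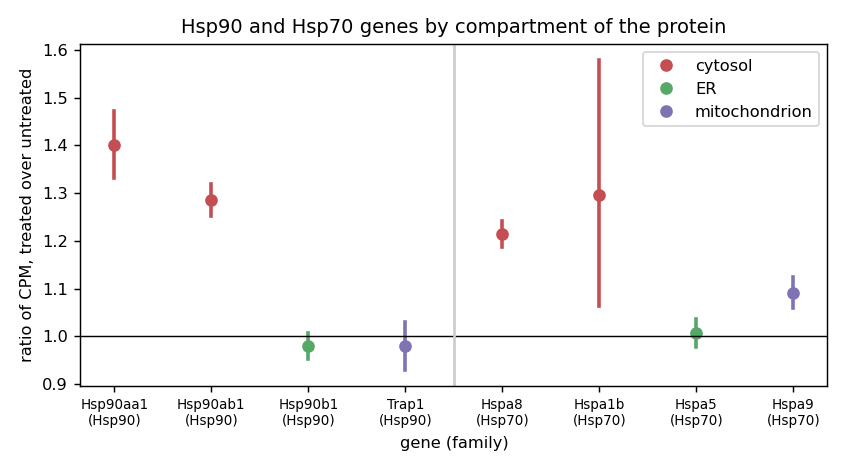
Ratio of CPM in the treated pool to the untreated pool for Hsp90 and Hsp70 genes, with 95% counting intervals as bars, coloured by the compartment of the protein. The cytosolic forms shown, all of them members, lie between 1.21-fold and 1.40-fold, and other cytosolic relatives are not shown. Hsp90b1, Trap1 and Hspa5 have intervals that include 1, and Hspa9 lies at 1.09-fold.

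Beyond the 10 genes, other known targets of HSF1 were mostly higher and ER chaperones mostly lower. In a list of 18 further HSF1 targets, 15 were above the floor, and their median log2 ratio was 0.18. Of these 15, 14 had a ratio above 1 (against 46.4% of all genes), some by very little. With both columns scaled to equal upper quartiles the count was 13 (against 44.5%). The interval lay wholly above 1 for 10 (against 18.7%) and wholly below 1 for 1 (against 20.8%). Only Hspa4l passed 1.5-fold higher, 0 were 1.5-fold lower and 0 passed 2-fold. Hspa4l, an Hsp110 relative, was at 15.02 CPM in the untreated pool and 23.9 CPM in the treated pool, 1.59-fold higher (1.36 to 1.86). The small heat shock protein gene Hspb8 was at 119.0 CPM and 172.8 CPM, 1.45-fold higher (1.37 to 1.54), and Bag3, the co-chaperone that works with it, was at 31.6 CPM and 42.1 CPM, 1.33-fold higher (1.19 to 1.49). Hspb1, the other small heat shock protein gene above the floor, was at 20.4 CPM and 27.3 CPM, 1.34-fold higher (1.16 to 1.53), with 48.4% unique stretches. In a list of 12 everyday reference genes, Gusb was at 1.22-fold (1.08 to 1.38) and Gapdh at 1.20-fold (1.17 to 1.23), and the median of the 11 above the floor was near 0, on either side of it depending on the alternative. Of 16 ER chaperone genes, all above the floor, 15 had a ratio below 1 (against 53.6% of all genes), 9 had an interval wholly below 1 (against 20.8%), none passed 1.5-fold and the median was -0.13. With both columns scaled to equal totals, 3 of these 16 were above 0 and the median stayed negative. Creld2 was 1.26-fold lower (1.04 to 1.52), Dnajb11 1.21-fold lower (1.10 to 1.33) and Sdf2l1 1.19-fold lower (0.971 to 1.47).

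The partners of the cytosolic and mitochondrial machines showed no such common direction. Some of the lists below share genes with the list of other HSF1 targets, the Hsp90 co-chaperones the most. Each shared gene above the floor had a ratio above 1, some by very little. Among 19 Hsp90 co-chaperones above the floor, of 23, 10 had a ratio above 1, with a median of 0.01 that was negative under some alternatives. Cdc37l1 was at 45.8 CPM and 61.3 CPM, 1.34-fold higher (1.22 to 1.47), and Sugt1 and Ttc4 were 1.35-fold (1.10 to 1.66) and 1.21-fold (1.02 to 1.43) lower. The J-domain list, without the members, had 17 of 32 genes above the floor, of which 8 had a ratio above 1, and its median of -0.01 was positive under some alternatives. Dnajb2 was 1.25-fold higher (1.14 to 1.38) and Dnaja2 1.15-fold lower (1.06 to 1.24), while Dnajc8 was at 0.852-fold (0.691 to 1.05). Of the Hsp70 and Hsp110 relatives, 5 of 10 genes were above the floor, 3 of these had a ratio above 1 and the median was 0.07, with Hspa4l the highest and Hspa13, an Hsp70 relative of microsomes, 1.15-fold lower (1.05 to 1.26). Of 8 Hsp70 exchange and capping genes above the floor, of 9, 3 had a ratio above 1, with a median of -0.10 that was positive with a floor of 50 CPM, and Bag5 was 1.27-fold lower (1.04 to 1.55), while Hspbp1 was at 0.870-fold (0.731 to 1.03). The 10 genes above the floor of the TRiC chaperonin and prefoldin list, which fold actin and tubulin, had a median of 0.01, with a change of sign under some alternatives. None of the 10 had an interval wholly above 1 (against 18.7% of all genes) or wholly below 1 (against 20.8%). The genes of this list farthest from equality were Pfdn1 at 0.864-fold (0.724 to 1.03), Pfdn5 at 0.904-fold (0.791 to 1.03) and the TRiC subunit Cct3 at 1.05-fold (0.975 to 1.14). Other mitochondrial chaperones and proteases had a median of -0.03 over 18 of 19 genes, which was just above 0 with both columns scaled to equal totals, with 7 ratios above 1. Among them the disaggregase Clpb was 1.17-fold lower (1.05 to 1.30) and the protease Oma1 1.24-fold higher (1.05 to 1.47), while the protease Htra2 was at 0.849-fold (0.715 to 1.01). Over the 10 wider chaperone lists together, 97 of 139 genes were above the floor. These lists include the other HSF1 targets (14 of 15 with a ratio above 1) and the ER chaperones (1 of 16). Of the 97, 40 had a ratio above 1, where 46.4% of all genes did. With both columns scaled to equal totals these were 49, against 54.6% of all genes. At least 1.5-fold higher was 1 of the 97 (against 2.07% of all genes), and 0 were at least 1.5-fold lower (against 1.39%).

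**Figure D5:**
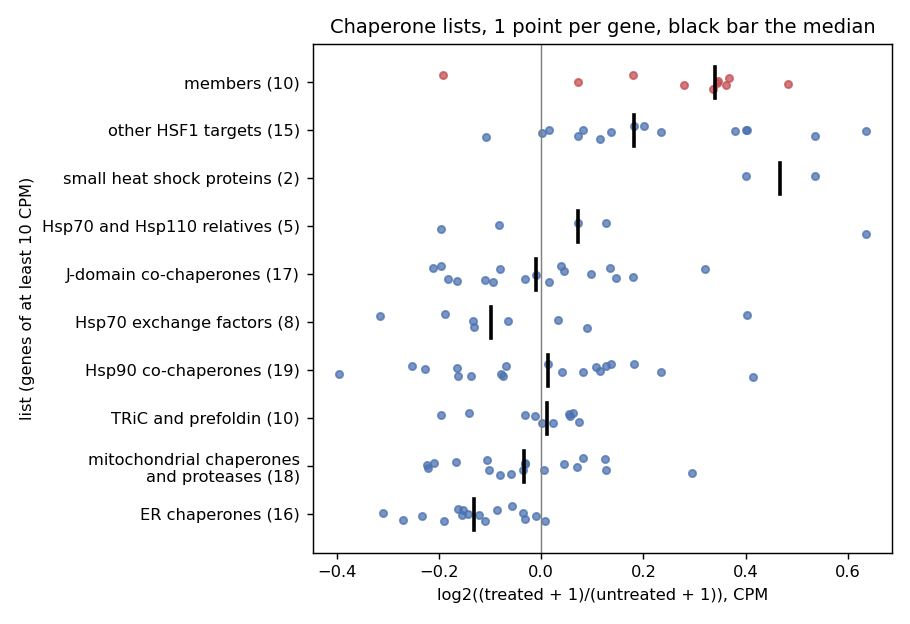
The log2((treated + 1)/(untreated + 1)) of each gene above the floor, by list, with the number of such genes in parentheses and a black bar at the median. The 10 members (red, median 0.34) and the other HSF1 targets (median 0.18) lie mostly to the right of 0, and the ER chaperones (median -0.13) mostly to the left. Some genes stand in more than 1 list.

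The promoter motif was also set beside the ratios of all genes, a description added with the values known. Of the 6 members with sequence, the 3 with a 3-unit array (Hspd1, Hspe1, Hsph1) stood at 1.27-fold to 1.29-fold, Hspa1b with 1 match at 1.30-fold, Dnaja1 with 1 match at 1.05-fold and Dnajb1 with none at 1.14-fold. Without the members, 37 genes above the floor had a 3-unit array, of which 19 had a ratio above 1 (51.4%) and the median log2 ratio was 0.00. Genes without a 2-unit match had a ratio above 1 in 46.1% of 5163 cases, with a median of -0.02. Chordc1, the only gene of the list of other HSF1 targets with a 3-unit array in a window, was at 1.14-fold (1.01 to 1.28).

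Single genes with known ties to temperature, time of day or handling also differed between the pools. The cold-inducible RNA-binding protein genes Rbm3 and Cirbp, which go up on cooling, were 1.20-fold lower (1.04 to 1.38, 25.7 against 21.5 CPM) and at a ratio of 0.754 (0.605 to 0.937, 11.3 against 8.49 CPM), with Cirbp just below the floor. Among clock genes, 8 of 12 above the floor had a ratio above 1, where 46.4% of all genes did. The period genes Per3, Per1 and Per2 were 2.12-fold (1.79 to 2.50), 1.90-fold (1.70 to 2.12) and 1.32-fold (1.10 to 1.59) higher. Several liver heat shock genes and Per2 are known to follow the daily body temperature rhythm. The names of the deposited columns end in a different number for each pool, whose meaning is not stated, and no label gives the hour at which the livers were taken. Immediate early genes, which respond within minutes, had 7 of 10 below 1, where 53.6% of all genes were. Their interval lay wholly below 1 for 5 of the 10 (against 20.8% of all genes) and wholly above 1 for 2 (against 18.7%). Nr4a1 was 5.16-fold lower (4.21 to 6.38), Dusp1 was 1.92-fold lower (1.75 to 2.11) and Junb was 1.51-fold lower (1.34 to 1.70). The part of any of these in the heat shock gene ratios was not tested.

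Hepatocyte markers summed to more than those of any other cell type examined. Summed hepatocyte markers, 8 of 8 listed, were at 84510 CPM in the untreated pool and 77443 CPM in the treated pool, with 3 of 8 higher. Alb, 1 of these markers, makes up most of this sum, with 5.70% of all reads in the untreated pool and 5.15% in the treated pool. The counts of higher markers, here and below, include genes under the floor. With no floor, 49.7% of all genes had a log2 ratio above 0, and above the floor 46.4% did. Above the floor were 8 of 8 hepatocyte, 5 of 8 Kupffer cell, 7 of 8 sinusoidal endothelial and 6 of 8 stellate cell markers. Of the cholangiocyte markers only 1 of 6 was above it, and of the erythroid markers 4 of 6. Kupffer cell markers summed to 302.2 CPM and 323.6 CPM with 6 of 8 higher, sinusoidal endothelial markers to 481 CPM and 497 CPM with 3 of 8 higher, and stellate cell markers to 532 CPM and 468 CPM with 0 of 8 higher. Cholangiocyte markers summed to 45.1 CPM and 35.7 CPM with 1 of 6 higher, and erythroid markers to 321 CPM and 352 CPM with 4 of 6 higher. Lymphocyte and NK cell markers (2 of 9 listed), neutrophil markers (5 of 7) and skeletal muscle markers (2 of 6) each summed to at most 1.08 CPM in either pool. The part of the cell make-up in the heat shock gene ratios was not tested.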

How the data were processed

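The authors deposited 1 table of CPM, with 15526 gene symbols and 1 column per library. Per the submitters' processing notes, Trimmomatic 0.38, Bowtie2, RSEM, edgeR and the build mm10 were used, without roles. No source used here names the annotation. Columns were matched to libraries by the code in the sample titles. Within each column 100% of the deposited CPM were whole multiples of the smallest value (relative tolerance 1e-06). This gave back 18801241 reads (control) and 16528533 reads (AAOT). Column sums were 1012463 and 987690 CPM, so the authors' scale holds a factor per library.

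With 1 library per group no count model was run. Ratios are plain ratios of CPM with exact 95% Clopper-Pearson intervals given the sum of both counts. Changes of a within-library proportion have normal intervals on the log scale. Both treat reads as independent molecules and cover counting error only. Genes were counted at 1.5-fold and 2-fold on log2((treated + 1)/(untreated + 1)) above a floor of 10 CPM. The steps were tested on simulated data.

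The members and lists were chosen with earlier results of these data known. Named genes are the 10 members, Hspa1a, the 3 genes above the floor with the largest log2 ratio, in either direction, in each list, and any past 2-fold. Hspb1, Cirbp, Chordc1 and the ER and mitochondrial relatives were singled out after their values were seen. A gene that this rule takes is not reported here. Positions are RefSeq on GRCm38, the assembly behind mm10. Unique stretches are 50-base stretches of the longest protein-coding GENCODE M21 transcript held by no other gene's transcripts. Scripts ran on scipy 1.17.1, numpy 2.4.6, pandas 2.3.3 and matplotlib 3.10.9 under Python 3.11.15. Alternatives were 4 other scalings, added constants of 0.1 and 5, floors of 1 and 50 CPM and none, 100-base stretches and windows before the start.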

Additional observations from a re-analysis of the deposited data

How the results depend on the processing

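The log2 ratios of the 10 members kept their direction under all 88 recalculations (other scalings, added constants, floors and, added after the values were seen, Hspa1a and Hspa1b summed). A floor leaves a gene's own ratio as it is, and an added constant cannot reverse its direction. Only the 4 other scalings and the summed locus could thus have changed a direction. Of the 88, 1 left the counting interval of the main value, Hspa8 at 0.32 with equal column totals. The median of the members and the medians of the other HSF1 targets (0.12 to 0.22) and ER chaperones (-0.14 to -0.10) were also recalculated. Each stayed between the median lower and the median upper counting limit of its single genes. No interval of a median itself is given. Of 124 recalculated list medians, 12 changed sign, all of lists with a median between -0.10 and 0.01. A floor of 50 CPM left 20 wider chaperone genes with a ratio above 1 instead of 40, because fewer genes were tested, and kept 7 of the 10 members. No paired analysis was possible because each group has 1 library. Among the members and Hspa1a, depth limits Hsf1, Hspa1b and Hspa1a most, with at most 260 reads each in a pool. Some named genes of the wider lists had similarly few reads, such as Sugt1 with 241 in the untreated pool and 161 in the treated pool. No setting speaks to differences between mice.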
